A study of Mus musculus with 4 samples.

Results

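The liver X receptors (LXRs) and the genes of cholesterol efflux were examined as a set of 8 genes, found by their symbols among the 24421 genes of the deposited matrices. They are the receptor genes Nr1h2 and Nr1h3, the transporter genes Abca1 and Abcg1, the lipoprotein genes Apoe and Pltp, the lysosomal lipase gene Lipa and the sterol hydroxylase gene Cyp27a1. Expression was measured by RNA-seq of polyadenylated RNA in epididymal adipose tissue, a visceral fat depot, of wild-type male C57BL/6J mice. Ctrl mice began high-fat diet (HFD) at 10 weeks of age and stayed on it for 14 weeks. Weight-cycled (WC1) mice began HFD at 8 weeks of age, received it for 8 weeks, were switched to standard diet for 2 weeks and returned to HFD for 6 weeks. Total HFD feeding was thus 14 weeks in each group, tissue was taken at 24 weeks of age, and there were 2 libraries per group. The age at the first HFD differed between the groups along with the weight loss, so the effects of these cannot be told apart.

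LXRs are nuclear receptors that are activated by oxysterols and bind DNA together with a retinoid X receptor. In macrophages that have taken up lipid, they switch on the transporters and apolipoproteins that pass cholesterol to high-density lipoprotein (HDL), and in adipocytes and liver they also act on fatty acid synthesis. In obese fat, macrophages around dying adipocytes take up lipid and degrade it in lysosomes, and efflux is a route by which the freed cholesterol leaves the cell.

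The tissue was first checked with marker genes. All 10 adipocyte markers were detected, and the 6 epididymis markers were at 0 in all 4 libraries. Reads recovered from the matrix and summed over its genes numbered between 61465029 and 90965297 per library. The least abundant of the 8 genes had 2880 recovered reads or more in each library. If these are counts of sequenced reads, the counting error was at most 1.86%, which covers counting error only. All 8 genes passed the filter on low values and were tested. The labels do not say whether the libraries came from separate or pooled animals, so the p-values rest only on spread between these libraries. In limma, part of the error of a gene is drawn from the spread of genes of similar abundance.

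Cyp27a1 was higher in WC1 than in Ctrl, by 0.29 on the log2 scale, and was the only gene of the 8 to pass the threshold, an adjusted p under 0.05 in limma. Lipa had the largest difference of the 8, a log2 fold change of -0.83, and did not pass. The count was thus 1 gene higher, 0 genes lower and 7 genes not called. Over all 14106 genes tested, 17.9% were called, 10.2% higher and 7.71% lower, which is 1443 and 1088 genes. In the TPM matrix the split was 1949 higher and 552 lower of 14234 genes. At an unadjusted p under 0.05, limma gave 2 genes higher and 2 lower, where 37.8% of all tested genes had such a p. On the recovered reads, edgeR called 1 higher and 0 lower (17.6% of all tested genes called), and DESeq2 called 1 higher and 2 lower (27.4% called). The Ctrl and WC1 libraries did not overlap in CPM for 7 of the 8 genes, against 69.3% of all tested genes. WC1 was above Ctrl for 2 of these 7 and below for 5. The median log2 fold change of the 8 genes was -0.14, beside -0.02 for all tested genes.

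Levels of different genes were compared per length, as TPM, which scales reads by transcript length and gives every library the same sum. The 8 genes together made up 0.764% and 0.766% of transcripts in the Ctrl libraries and 0.665% and 0.614% in the WC1 libraries. Apoe alone accounted for between 61.3% and 65.8% of that sum. It ranked 15 among all tested genes by its mean TPM.

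In Ctrl, the order of mean TPM was Apoe (4966 ± 26.9), Pltp (1271 ± 34.2), Lipa (1069 ± 56.2), Nr1h3 (93.6 ± 5.85), Abcg1 (85.0 ± 0.112), Nr1h2 (78.6 ± 1.77), Abca1 (46.4 ± 2.21) and Cyp27a1 (42.7 ± 0.106; SD, n = 2 libraries). No neighbours in this order overlapped between their libraries. In WC1 the first 4 places were the same, with Apoe at 4057 ± 25.1 and Lipa at 674 ± 187. Nr1h2 (79.7 ± 3.34) then stood above Abcg1 (73.4 ± 13.8), whose libraries overlapped with it. Cyp27a1 (57.9 ± 0.134) stood above Abca1 (46.4 ± 4.98), the reverse of their order in Ctrl, with no overlap in either group.

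**Figure D1:**
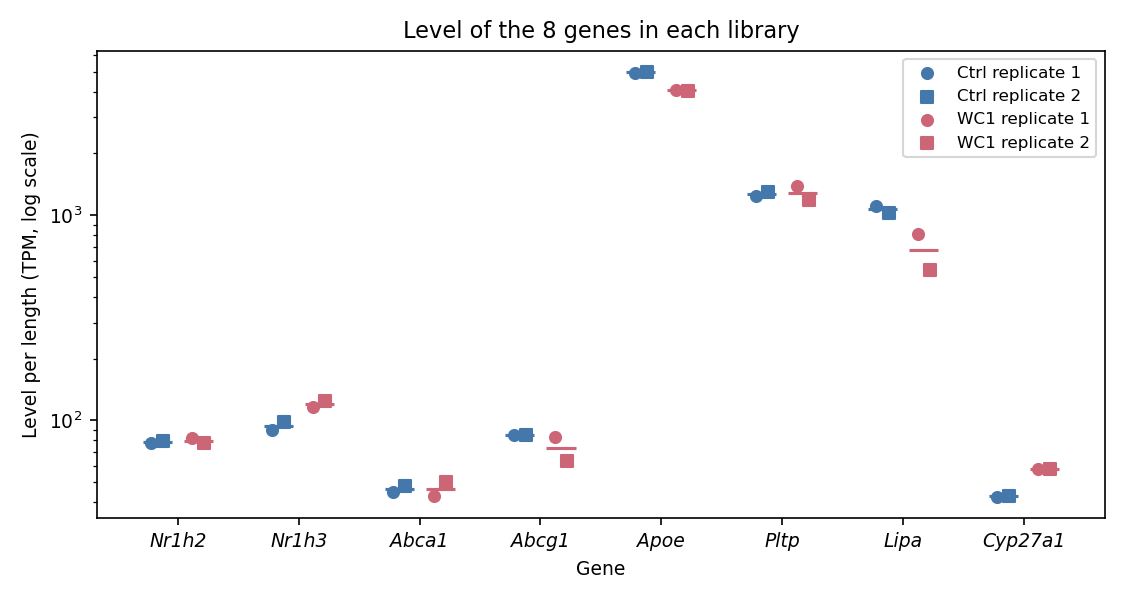
Level per length in TPM (log axis) of the 8 genes in each of the 4 libraries, with Ctrl in blue and WC1 in red, circles for replicate 1, squares for replicate 2 and short lines for the mean of 2 libraries. Apoe is the highest in all libraries, at 4039 TPM or more, and the WC1 libraries stand furthest apart from each other in Lipa, at 806 and 542 TPM.

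Next, each gene was described by its role, beginning with the receptors. Nr1h2, located at chr7:44549616-44553951 on the minus strand (GRCm38, as are the positions that follow), encodes LXRβ, the widely expressed receptor. It was measured at 81.4 and 83.2 CPM in the Ctrl libraries and 79.2 and 72.3 CPM in the WC1 libraries. Both WC1 libraries were below both Ctrl libraries, with the lower value in WC1 replicate 2. WC1 differed from Ctrl by a log2 fold change of -0.12 ± 0.07 (SE, adjusted p = 0.299 by limma), with a 95% interval from -0.31 to 0.07. It was -0.18 without WC1 replicate 1 and -0.06 without WC1 replicate 2, and not called in either case (adjusted p = 0.0920 and 0.623, limma). In TPM, which rescales every library, the groups overlapped and the log2 fold change was 0.02.

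Nr1h3, at chr2:91184061-91202834 on the minus strand, encodes LXRα, the receptor that is enriched in fat, liver and macrophages. Its level was 89.8 and 96.7 CPM in Ctrl and 105 and 109.9 CPM in WC1. Both WC1 libraries were above both Ctrl libraries. The log2 fold change was 0.20 ± 0.07 (adjusted p = 0.119, limma), with a 95% interval from 0.01 to 0.39. In TPM the values were 89.5, 97.8, 116 and 125 in the same order, and the gene was called there, 0.36 higher in WC1 (log2, adjusted p = 0.048, limma). Its adjusted p in the 14 alternatives ranged from 0.048 to 0.526. The annotation places the predicted gene Gm13783 on the same strand within the same span, so reads may have been divided between them.

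The balance of the receptors was then calculated, as the TPM of Nr1h3 divided by that of Nr1h2. The ratio was 1.16 and 1.22 in Ctrl and 1.41 and 1.61 in WC1. Nr1h3 was thus the more abundant receptor transcript in all 4 libraries, and the groups did not overlap. The log2 ratio differed by 0.34 between the groups, with means of 0.25 ± 0.06 in Ctrl and 0.59 ± 0.14 in WC1 (SD, n = 2). The exact permutation p was 0.333 (two-sided), the smallest value that 2 libraries against 2 allow.

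The transporters move cholesterol out of the cell, Abca1 to lipid-poor apolipoprotein A-I and Abcg1 to mature HDL particles. Abca1, at chr4:53030787-53159895 on the minus strand, was measured at 241 and 255 CPM in Ctrl and 211 and 238 CPM in WC1. The WC1 libraries lay below the Ctrl libraries, though WC1 replicate 2 and Ctrl replicate 1 almost met. This gave a log2 fold change of -0.14 ± 0.09 (adjusted p = 0.307, limma), with a 95% interval from -0.38 to 0.09. The value was -0.06 without WC1 replicate 1 and -0.23 without WC1 replicate 2, neither of which was called (adjusted p = 0.586 and 0.0860, limma). In TPM the group means were equal to 3 digits, 46.4 ± 2.21 in Ctrl and 46.4 ± 4.98 in WC1, and the libraries overlapped.

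Abcg1, at chr17:31057675-31117988 on the plus strand, had 259 and 257 CPM in Ctrl and 232 and 172 CPM in WC1. The Ctrl libraries were close together, and both WC1 libraries were lower, replicate 2 by more. The log2 fold change was -0.36 ± 0.15 (adjusted p = 0.151, limma), with a 95% interval from -0.76 to 0.03. The value rested on WC1 replicate 2, since without that library it was -0.15 (adjusted p = 0.189, limma). Without WC1 replicate 1 it was -0.58 and passed the threshold (adjusted p = 0.00210, limma). In both of these tests the spread came from the Ctrl libraries alone, with an SD of 1.47 CPM beside 42.5 CPM between the WC1 libraries. The adjusted p over the 14 alternatives ranged from 0.00210 to 0.442. The predicted gene Gm25447 lies within the span of Abcg1 on the same strand.

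Promoter sequence was examined for the classical LXR response element, a DR4, which is a direct repeat of AGGTCA with 4 bases between the copies. The RefSeq promoter table (GRCm38.p6), which covers 250 bases before and 50 bases after each start, held 10 windows for 7 of the 8 genes, and Abcg1 was not among them. With at most 1 mismatch in each copy, searched on both strands, 0 of the 10 windows had a DR4, compared to 1.75% of all 32851 windows. A DR1 of the same repeat, with 1 base between the copies, was found in 0 of the 10 windows and in 2.40% of all windows. CACGTG, the E-box, was found in the Abca1 window alone among the 10, and in 7.15% of all windows. With up to 2 mismatches in 1 copy and 1 in the other, a setting added after the sequences had been seen, the Abca1 window also matched a DR4, as did 18.8% of all windows. This match lay from -67 to -52 relative to the start, on the strand opposite to the gene, and the E-box lay from -147 to -142. The Abca1 promoter is printed because it is the only one of the 10 windows with a match to any of these motifs. The line gives the 250 bases before the start at chr4:53159896-53160145, read 5′ to 3′ on the minus strand, and the capitals mark the E-box and then the loose DR4 match.
Abca1: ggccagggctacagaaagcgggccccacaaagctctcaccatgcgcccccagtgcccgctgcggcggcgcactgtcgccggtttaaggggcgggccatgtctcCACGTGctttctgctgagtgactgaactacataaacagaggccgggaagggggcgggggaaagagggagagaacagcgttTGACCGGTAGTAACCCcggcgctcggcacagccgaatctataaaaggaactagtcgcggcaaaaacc
These matches are letters in a window and were not tested for binding. An element with more mismatches than a search allows, or outside the windows, would be missed. The absence of a match therefore does not show that a gene lacks an LXR element, and a match shared with many windows does not show that it is unused.

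Apoe and Pltp encode proteins that carry lipid outside the cell. Apoe, at chr7:19696109-19699188 on the minus strand, encodes apolipoprotein E, which macrophages and adipocytes secrete and which accepts cholesterol. It was measured at 3295 and 3288 CPM in Ctrl and 2489 and 2390.1 CPM in WC1. The libraries agreed closely within each group, and both WC1 libraries were lower. The log2 fold change was -0.43 ± 0.17 (adjusted p = 0.131, limma), with a 95% interval from -0.86 to -0.0019. The SE is wider than the spread of these libraries, as limma draws part of the error of a gene from genes of similar abundance. DESeq2 on the recovered reads called the gene at -0.41 (adjusted p = 1.78e-05), and limma called it without WC1 replicate 1, at -0.46 (adjusted p = 0.0306), again with the spread of the Ctrl libraries alone. In the other 12 of the 14 alternatives it was not called, with adjusted p values of up to 0.601.

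Pltp, at chr2:164839518-164857711 on the minus strand, encodes the phospholipid transfer protein that remodels HDL. Its level was 1179 and 1212 CPM in Ctrl and 1199 and 994 CPM in WC1, so the groups overlapped. Only WC1 replicate 2 was below the others. A log2 fold change of -0.13 ± 0.14 was obtained (adjusted p = 0.534, limma), with a 95% interval from -0.49 to 0.23. It was 0.01 in TPM and 0.0047 without WC1 replicate 2. The gene overlaps Ctsa on the opposite strand. The sources used here do not say whether counting used strand, and without it reads of the overlapping parts cannot be told apart.

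Lipa encodes lysosomal acid lipase, which frees cholesterol from the cholesteryl esters that a cell has taken up and thereby feeds efflux. The gene lies at chr19:34492318-34527474 on the minus strand. It was measured at 1724 and 1585 CPM in Ctrl and 1148 and 748 CPM in WC1. Both WC1 libraries were lower than both Ctrl libraries, and the WC1 libraries stood far apart from each other. The log2 fold change was -0.83 ± 0.23 (adjusted p = 0.0656, limma), with a 95% interval from -1.43 to -0.24. It was called in 5 of the 14 alternatives and the adjusted p ranged from 0.000723 to 0.341. Of these 5 calls, 3 used all 4 libraries. They were DESeq2 (adjusted p = 0.000723), limma after quantile normalization (adjusted p = 0.0411) and limma with the replicate number as a block (adjusted p = 0.0307). Leaving out WC1 replicate 1 gave -1.14 (adjusted p = 0.00108, limma), and leaving out WC1 replicate 2 gave -0.52 (adjusted p = 0.0233, limma), both past the threshold. With 1 WC1 library left, the spread in these tests came from the Ctrl libraries alone (SD 98.5 CPM, beside 283 CPM between the WC1 libraries).

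Cyp27a1, at chr1:74713574-74737892 on the plus strand, encodes the mitochondrial enzyme that hydroxylates the side chain of cholesterol and makes an oxysterol ligand of LXR. It was measured at 42.1 and 41.8 CPM in Ctrl and 52.4 and 51.0 CPM in WC1. The libraries of a group lay close together and the groups were well apart. The gene rose by a log2 fold change of 0.29 ± 0.07 (adjusted p = 0.0432, limma), with a 95% interval from 0.12 to 0.46. In TPM the change was 0.43, from 42.6 and 42.7 in Ctrl to 57.8 and 58.0 in WC1. The direction was the same in all 14 alternatives, and the call was made in 11 of them. It was lost without a filter on low values (adjusted p = 0.0552, limma), without Ctrl replicate 1 (log2 fold change 0.30, adjusted p = 0.274) and without Ctrl replicate 2 (log2 fold change 0.29, adjusted p = 0.239).

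**Figure D2:**
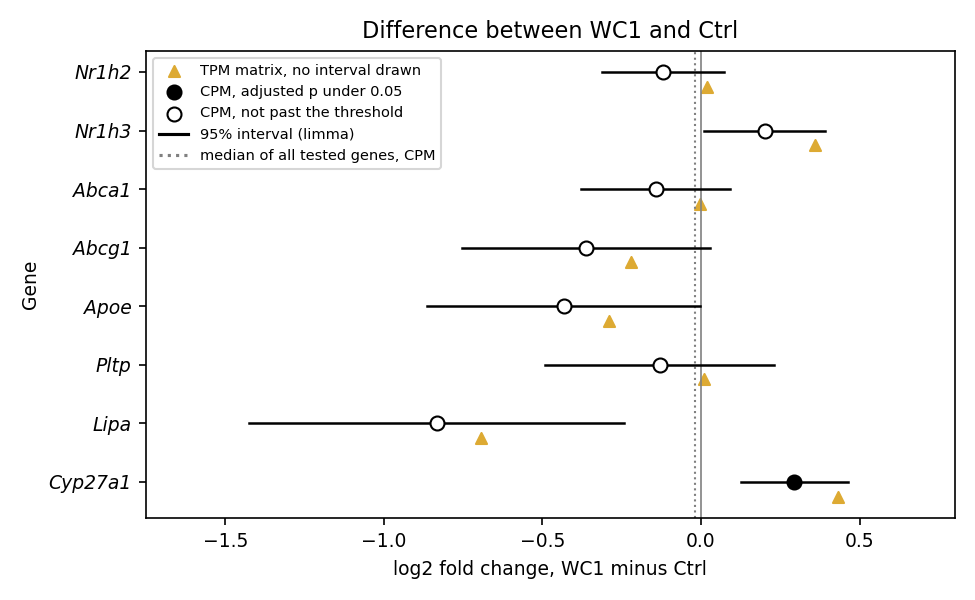
Difference between WC1 and Ctrl for the 8 genes as a log2 fold change, with circles for the CPM matrix (filled when the limma adjusted p is under 0.05), horizontal lines for the 95% interval and triangles for the TPM matrix. Cyp27a1 is the only filled circle, at 0.29, and Lipa lies furthest from 0, at -0.83.

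The TPM matrix shifted the median log2 fold change of all tested genes by 0.12, from -0.02 to 0.10. Relative to the median of their own matrix, Nr1h2, Abca1 and Pltp were at -0.10, -0.12 and -0.11 in CPM and at -0.08, -0.10 and -0.09 in TPM. All 3 were thus below the median gene in both matrices. The same measure was 0.22 in CPM and 0.26 in TPM for Nr1h3.

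Genes with the most similar profile over the 4 libraries were then looked up for the genes at either end, by Euclidean distance between centred log2(CPM + 1) values among 10811 candidates. For Cyp27a1, the nearest were Ash1l (distance 0.0209), Firre (0.0319) and Kiz (0.0322). For Lipa, they were Gpr137b-ps (0.0238), Ctss (0.0375) and Tmem206 (0.0431). Ctss encodes the lysosomal protease cathepsin S, and its level was 2529 and 2334 CPM in Ctrl and 1737 and 1125 CPM in WC1. These genes were picked for their likeness over the same libraries, which is therefore no result about them.

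In bulk tissue, fewer cells of a type and less RNA per cell cannot be told apart, so cell type markers are given beside the 8 genes. Of 14 macrophage markers, 7 were lower in WC1 by limma, 0 were higher and 7 were not called (10 lower and 1 higher at an unadjusted p under 0.05 and in DESeq2, 7 and 0 in edgeR), and their summed level was 14656 and 13490.4 CPM in Ctrl and 9087 and 6508 CPM in WC1. None was at 0, and Adgre1, the gene of the F4/80 antigen, was at 675, 618, 522 and 353 CPM in the same order (adjusted p = 0.103, limma). The macrophage sum was lowest in WC1 replicate 2. Of the 8 genes, Nr1h2, Abcg1, Apoe, Pltp and Lipa were also lowest in that library, Abca1 was lowest in WC1 replicate 1, Nr1h3 was highest in WC1 replicate 2 and Cyp27a1 was lowest in Ctrl replicate 2.

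Of 10 adipocyte markers, 7 were higher by limma and 0 lower (10 and 0 at an unadjusted p under 0.05 and in DESeq2, 8 and 0 in edgeR), with sums of 10334 and 11641 CPM in Ctrl and 18518 and 23773 CPM in WC1. Of 7 endothelial markers 5 were higher, and their sum was 421 and 464 CPM in Ctrl and 820.5 and 1049.95 CPM in WC1. Of 8 fibroblast markers 3 were lower, and their sum was 9471 and 9161 CPM in Ctrl and 8337 and 6491 CPM in WC1. Of 5 skeletal muscle markers 2 were tested and 1, Acta1, was higher. The B cell markers, of which 1 of 4 was higher, summed to 4.31 and 2.59 CPM in Ctrl and 7.24 and 26.4 CPM in WC1. None of the 6 mesothelial or the 7 T and NK cell markers was called by limma, edgeR or DESeq2. At an unadjusted p under 0.05, limma gave 0 of the former and 1 of the latter. The part of any of these cell types in the values of the 8 genes was not tested.

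The level of each gene was also expressed per summed macrophage marker level, as a description with no test. On this scale the log2 difference between WC1 and Ctrl was 1.17 for Cyp27a1, 1.07 for Nr1h3, 0.75 for Nr1h2, 0.74 for Pltp, 0.73 for Abca1, 0.50 for Abcg1 and 0.44 for Apoe. The division adds 0.87 to the log2 difference of every gene, and the median of the 14078 tested genes above 0 in all libraries was 0.85 on this scale. Cyp27a1 and Nr1h3 were above that median and the other 6 genes below it. Lipa was at -3.09 and -3.09 in Ctrl and -2.98 and -3.12 in WC1, a difference of 0.04. Lyz2 holds the largest part of the marker sum and was itself lower by 1.25 on the log2 scale. Without it, in a setting added after the data had been seen, the difference was -0.18 for Lipa, 0.22 for Apoe and 0.29 for Abcg1, and between 0.51 and 0.96 for the other 5 genes, beside a median of 0.64 for all genes. Leaving out Lyz2 moves every gene by the same amount, so the place of a gene relative to the median is fixed.

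**Figure D3:**
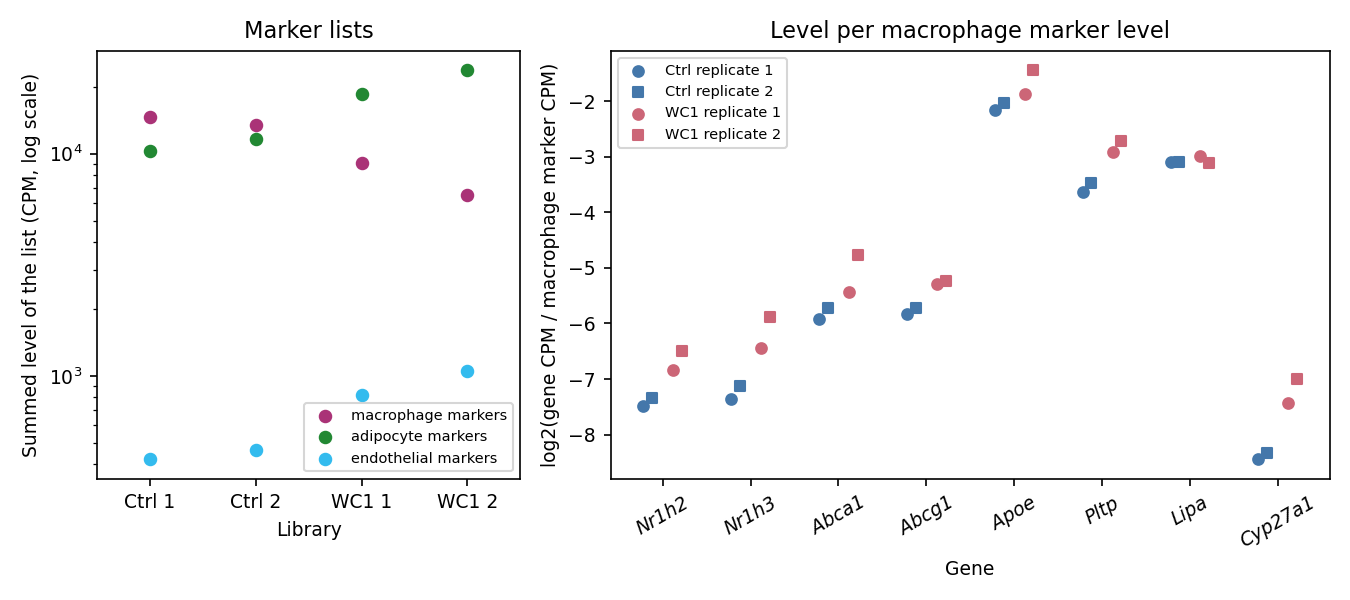
Left, summed level in CPM (log axis) of the macrophage, adipocyte and endothelial marker lists in each library. Right, log2 of the CPM of each of the 8 genes over the summed macrophage marker CPM, with Ctrl in blue and WC1 in red. The division adds 0.87 to the difference of every gene, and against the median gene, at 0.85, Cyp27a1 (1.17) and Nr1h3 (1.07) are above and Lipa (0.04) is furthest below.

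Other genes of the pathway were examined in 6 lists with 75 genes, of which 69 were expressed highly enough to be tested. In total 11 were higher, 9 were lower and 49 were not called, and in the TPM matrix 16 were higher and 7 lower. Over all tested genes, 10.2% were higher and 7.71% lower, and in the TPM matrix 1949 and 552 of 14234. The median log2 fold change over the 69 was 0.01. The direction of each of the 20 called genes was the same in all alternatives in which it was tested. Without Ctrl replicate 1 or without Ctrl replicate 2, limma called 0 of the 69 higher and 1 lower, which was Cd5l. Over all 14106 genes there were then 2 higher and 4 lower, or 6 and 6, so few genes of any kind were called in these settings.

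Among 15 receptor partners and co-regulators, 3 were higher, 0 lower and 12 not called by limma (4 and 1 at an unadjusted p under 0.05, 3 and 0 in edgeR, 4 and 0 in DESeq2), with a median log2 fold change of 0.13. The shares over all tested genes were 17.9% by limma, 37.8% at an unadjusted p under 0.05, 17.6% in edgeR and 27.4% in DESeq2, near those of this list. The retinoid X receptor gene Rxrg rose by 0.82 ± 0.15 (adjusted p = 0.0304, limma). The co-regulator gene Nrip1, whose product is a co-repressor of nuclear receptors in fat, rose by 0.74 ± 0.13 (adjusted p = 0.0277, limma). Rxra, the more abundant partner gene, was at 138 and 146 CPM in Ctrl and 142 and 165 CPM in WC1, an overlap, and differed by 0.11 ± 0.10 (log2, adjusted p = 0.431, limma).

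Of 17 other LXR target genes, 15 were tested, 4 of which were higher, 4 lower and 7 not called, with a median of 0.23. Over all tested genes, limma called 10.2% higher and 7.71% lower. The 4 higher genes, named after their values were seen, were the genes of fatty acid synthesis Scd1 (1.32), Fasn (1.23) and Acaca (0.52) and Mlxipl (1.08), which encodes the carbohydrate-response factor ChREBP. The largest decrease was that of Cd5l, a secreted protein of tissue macrophages, which fell from 88.0 and 68.3 CPM to 2.29 and 3.03 CPM. Its log2 fold change was -4.43 ± 0.17 (adjusted p = 0.00348, limma) and it was called in all 14 alternatives. Apoc2, the cofactor of lipoprotein lipase, fell by 1.40 from 5.29 and 3.79 CPM to 1.59 and 0.667 CPM (adjusted p = 0.0308, limma). Over the 13 alternatives in which Apoc2 was tested, its log2 fold change ranged from -2.01 to -0.64. The other lower genes, also named after their values were seen, were Mertk (-0.60), a receptor for the uptake of apoptotic cells, and the phosphodiesterase gene Smpdl3a (-0.54). Srebf1, the main lipogenic target, was at 0.29 ± 0.08 on that scale (adjusted p = 0.0715, limma), and Mylip, which encodes a ubiquitin ligase, was at 0.23 ± 0.15 (adjusted p = 0.325, limma).

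Of 14 genes of intracellular cholesterol handling, 1 was lower, 0 higher and 13 not called, with a median log2 fold change of -0.12. At an unadjusted p under 0.05, 5 were lower and 0 higher, edgeR called 1 lower and 0 higher, and DESeq2 called 5 lower and 1 higher, beside 37.8%, 17.6% and 27.4% of all tested genes. The lysosomal membrane protein gene Lamp2 had a log2 fold change of -0.53 ± 0.12 (adjusted p = 0.0440, limma). Npc1, which exports cholesterol from lysosomes, was at 211 and 203 CPM in Ctrl and 156 and 116 CPM in WC1, and just missed the threshold at -0.62 ± 0.15 (adjusted p = 0.0505, limma). Its lysosomal partner Npc2 was at 0.27 ± 0.12 (adjusted p = 0.180, limma). Soat1, which esterifies cholesterol for storage, was at -0.67 ± 0.20 (adjusted p = 0.0798, limma).

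Of 9 genes of efflux acceptors and HDL, 7 were tested and none was called by limma or edgeR, with a median log2 fold change of -0.17. At an unadjusted p under 0.05 limma gave 3 higher and 1 lower, and DESeq2 called 1 higher and 0 lower. Over all tested genes, these shares were 37.8% and 27.4%, and limma and edgeR called 17.9% and 17.6%. The HDL receptor gene Scarb1 was at 125 and 131 CPM in Ctrl and 152 and 195 CPM in WC1 (log2 fold change 0.43 ± 0.13, adjusted p = 0.0819, limma).

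Of 12 genes of enzymes that make or degrade sterol ligands, 11 were tested, of which 1 was higher, 3 lower and 7 not called, with a median of 0.02. The share called over all tested genes was 17.9%. Cyp11a1, which encodes the side-chain cleavage enzyme, fell by 1.17 ± 0.17 at a low level, from 2.62 and 1.76 CPM to 0.360 and 0.445 CPM (adjusted p = 0.0220, limma). Its log2 fold change depended on the setting, from -2.42 to -0.41 over the 13 alternatives in which it was tested. Ch25h, another source of an oxysterol, was near 1 CPM in all libraries and not called (log2 fold change 0.28 ± 0.17, adjusted p = 0.286, limma).

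Of 8 genes of lipoprotein uptake, 7 were tested, of which 3 were higher, 1 lower and 3 not called, beside 17.9% called over all tested genes. Vldlr, the receptor for very-low-density lipoprotein, rose by 0.89 ± 0.13 (adjusted p = 0.0199, limma), and the related receptor gene Lrp8 fell by 1.69 ± 0.25 (adjusted p = 0.0223, limma).

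**Figure D4:**
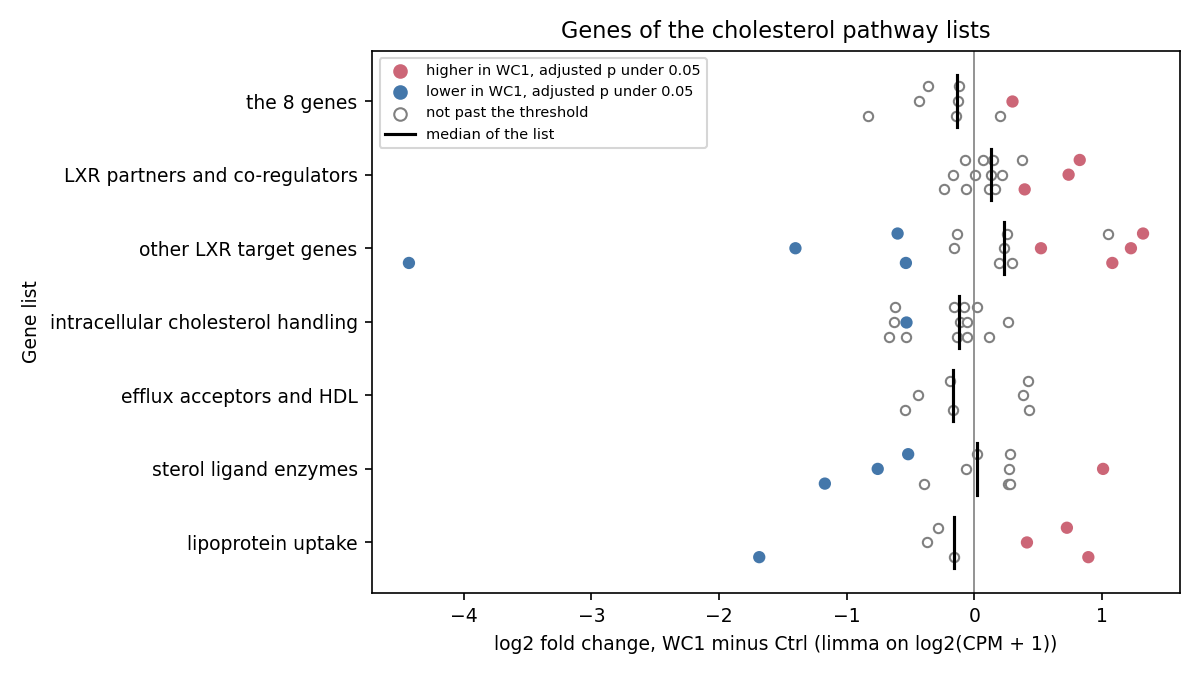
Log2 fold change, WC1 minus Ctrl, of the 8 genes and of the tested genes of 6 pathway lists, 1 point per gene, filled when the limma adjusted p is under 0.05, with a black line at the median of each list. The lists differ in size, and 17.9% of all tested genes were called. In the list of other LXR target genes, 4 of 15 points are filled on each side of 0, and the lowest is Cd5l at -4.43.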

How the data were processed

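Libraries were directional and made from poly(A) RNA, and groups and replicate numbers follow the sample titles. The submitters' processing notes name fastp, HISAT2, StringTie and the build mm10, and neither the annotation nor the use of strand in counting is given in the sources used here. The first deposited matrix is a signal proportional to reads, in which the authors scaled each library by a rescaled size. It is written as CPM here. Relative to the sum of unscaled CPM, its columns sum to 104.8% and 104.5% in the Ctrl libraries and to 101.0% and 97.6% in the WC1 libraries. The scaling thus differs between the groups. 100% of its values were whole numbers of reads, to within 0.01 read, and the totals recovered for Ctrl replicates 1 and 2 were 71658062 and 90965297 reads, and those for WC1 replicates 1 and 2 were 61655738 and 61465029 reads. There, 3 reads equal between 0.0345 and 0.0492 CPM. The other matrix holds TPM as deposited by the authors, per transcript length and with the same sum in each library.

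Genes with at least 0.5 CPM in 2 or more of the 4 libraries were tested (14106 of 24421). WC1 was compared with Ctrl on log2(CPM + 1) by limma 3.58.1 (R 4.3.3, two-sided, moderated variance with an abundance trend), and p-values were adjusted over all of these genes (Benjamini-Hochberg, threshold 0.05). Intervals of 95% are not adjusted. A fold change on this scale understates that of low genes. The scripts were tested on simulated data. edgeR 4.0.16 and DESeq2 1.42.0 were run on the recovered reads as alternatives, next to other pseudocounts, filters and scalings, a replicate block and leaving out each library. Gene positions are from GENCODE M21 (GRCm38) and promoters from RefSeq (GRCm38.p6). In 8 of 10 promoter windows the bases after the start were found near the start of an annotated transcript.

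The 8 genes, the pathway lists and the marker lists were chosen with earlier results of these data known. In the pathway lists, the 2 called genes with the largest change and a mean of at least 1 CPM were named, as were Rxra, Srebf1, Mylip, Npc1, Npc2, Soat1, Ch25h and Scarb1, and the 3 genes nearest in profile to Cyp27a1 and to Lipa with a mean of at least 5 CPM, skipping predicted genes. Genes named outside this rule are said to be so, apart from marker genes. Some genes that the rule names are not reported here.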

Additional observations from a re-analysis of the deposited data

How the results depend on the processing

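Of 112 values of the 8 genes under the 14 alternatives, 97 kept their direction and their side of the threshold, 9 passed it newly, 3 no longer passed and 3 changed sign: Nr1h2 (0.019) and Pltp (0.010) in TPM, and Pltp without WC1 replicate 2 (0.0047, in a range from -0.27 when 1 library was left out). The number of the 8 genes higher, 1, became 0 without a filter on low values and 2 in TPM, and ranged from 0 to 1 when a library was left out. The number lower, 0, became 1 under quantile normalization (Lipa, adjusted p = 0.0411), 2 in DESeq2 (Apoe and Lipa) and ranged from 0 to 3 when a library was left out. Of the pathway genes, 11 higher and 9 lower, 4 were higher without a filter, and DESeq2 gave 17 and 14. Over all genes, the calls moved alike, from 1443 higher and 1088 lower to 788 and 532 of 18132 without a filter and to 2125 and 1736 in DESeq2. With a library left out, the counts ranged from 0 to 17 and from 1 to 20, and those over all genes from 2 to 2424 and from 4 to 2748. The pathway counts fell when a Ctrl library was left out, where the lone Ctrl library is assumed to vary like the WC1 libraries, as a lone WC1 library is assumed to vary like the Ctrl libraries. The cause of these changes was not tested.

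The labels do not say that equal replicate numbers pair the libraries, and the difference between replicates 1 and 2 correlated across 14106 genes with r = 0.194 between the groups. With a replicate block, 1 of the 8 genes was lower (Lipa, adjusted p = 0.0307), and 13 pathway genes were higher and 14 lower, beside 1769 and 1497 of all 14106 genes. The ratio of Nr1h3 to Nr1h2 differed by between 0.25 and 0.44 on the log2 scale without 1 library and by 0.32 in CPM. The loose DR4 search moved the number of genes with a match from 0 to 1. For the level per macrophage marker, leaving out Lyz2 lowered every gene and the median gene alike (from 0.85 to 0.64), and Lipa with them from 0.04 to -0.18. Counting error was at most 1.86% for any of the 8 genes in a library.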
